A study of Arabidopsis thaliana with 6 samples.

Results

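The SEPALLATA genes of Arabidopsis thaliana are SEP1 (AT5G15800), SEP2 (AT3G02310), SEP3 (AT1G24260) and SEP4 (AT2G03710). These 4 of 27432 protein-coding nuclear genes were chosen by locus, and a peak was counted where its summit fell inside a gene or no more than 3 kb from either end. This gave 5 of 3601 peaks in the SEP3tet line and 5 of 2225 peaks in the SEP3wt line.

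SEP proteins are MADS-domain transcription factors. They bind DNA as dimers at CArG boxes and join pairs of such dimers into tetramers with the proteins of the floral organ identity genes. SEP1, SEP2 and SEP3 act largely redundantly in specifying petals, stamens and carpels, and SEP4 contributes to floral meristem and sepal identity. SEP3 is the member that enters the widest range of complexes.

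Binding of SEP3 was mapped by chromatin immunoprecipitation and sequencing (ChIP-seq) in inflorescences, labelled as floral cells. The SEP3tet plants carried pSEP3:SEP3tet, a SEP3 deficient in tetramer formation under the SEP3 promoter, and the SEP3wt plants carried pSEP3:SEP3wt, the wild-type protein under the same promoter. Both transgenes stood in the sep1,2,3 background, so the plants of all groups shared the mutated SEP1, SEP2 and SEP3 genes. The native SEP3 antibody was used on 2 samples per line, and pre-immune serum on 1 further sample per line as a mock, which makes 6 samples. Neither plant age nor the number of independent transgenic lines is given in the labels, and the labels do not name the alleles or the change in SEP3tet.

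The values were 1 deposited peak list per line. The lists hold no value per replicate, so the spread between replicates is unknown and no difference between SEP3tet and SEP3wt was tested. The authors' fold enrichment, which divides ChIP signal by the caller's background where a peak is highest, ran from 1.97 to 11.9 (median 3.65) in SEP3tet and from 1.98 to 10.8 (median 3.38) in SEP3wt. Folds and −log10 q values are the authors' own, and percentiles are shares of peaks in the same list with a lower value. Peak coordinates are 1-based TAIR10 positions; gene edges came from a RefSeq table of TAIR10.1, without strand, so gene ends are called low or high by coordinate.

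Every SEP gene had a peak in at least 1 line, and SEP3 and SEP4 had peaks in both. A summit lay at SEP2, SEP3 and SEP4 in SEP3tet and at SEP1, SEP3 and SEP4 in SEP3wt, 3 of 4 genes in each. Over all protein-coding genes the share was 21.2% in SEP3tet and 13.7% in SEP3wt, with 12.4% in both, 8.78% in SEP3tet only and 1.3% in SEP3wt only. None of the 10 summits lay in a SEP gene body: 5 of 5 in SEP3tet and 5 of 5 in SEP3wt were outside. Over whole lists, 39.8% of all SEP3tet summits and 45.2% of all SEP3wt summits lay in a protein-coding gene body. The peaks at SEP3 nevertheless reached into the gene, covering 40.1% of it in SEP3tet and 27.4% in SEP3wt. The closest SEP3wt summit there lay 1 bp outside. For 4 of 5 peaks in each line the SEP gene was also the nearest protein-coding gene.

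**Figure D1:**
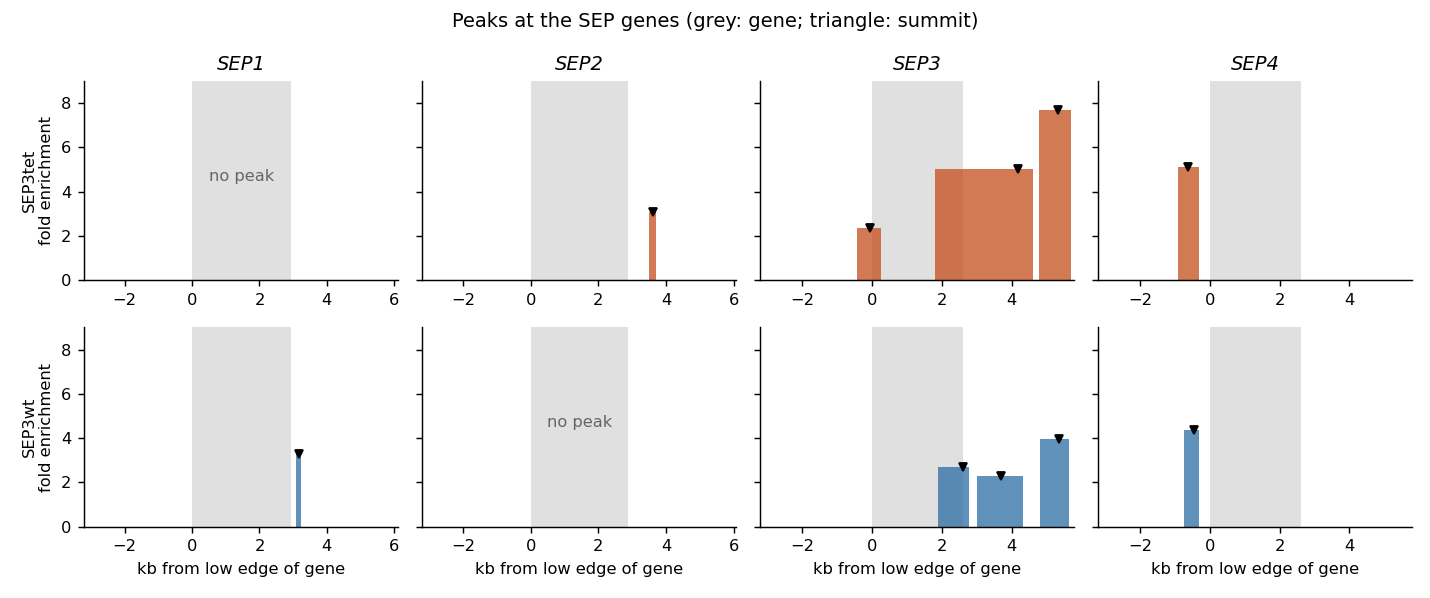
Peaks at SEP1 to SEP4 in SEP3tet (upper row) and SEP3wt (lower row), by distance in kb from the low-coordinate edge of the gene; bar width is the peak's extent, bar height the authors' fold enrichment, the triangle the summit and grey the gene. SEP3 had 3 peaks in each line, SEP4 had 1 in each, SEP1 had 1 in SEP3wt and SEP2 had 1 in SEP3tet.

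SEP3, the gene that encodes the precipitated protein, had the most summits and the widest peak coverage of the family, and in SEP3tet the highest fold (7.7, with 5.1 at SEP4). In SEP3wt the highest fold was that of SEP4, 4.35, with 3.97 at SEP3. It held 3 summits in SEP3tet and 3 in SEP3wt; 1.06% of all genes had at least 3 in SEP3tet, 0.62% in SEP3wt and 0.277% in both. Peaks covered 50.4% of the gene and its 3-kb flanks in SEP3tet (4328 of 8588 bp) and 35.1% in SEP3wt (3011 bp). At SEP4, the next most covered, the shares were 7.19% in SEP3tet and 5.06% in SEP3wt. Since the plants carried a SEP3 transgene beside the native locus, reads of the 2 copies cannot be told apart here.

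The strongest SEP3 peak in either list lay beyond the high end of the gene. In SEP3tet it spanned 8598301 to 8599229 of chromosome 1 (929 bp; fold 7.7; −log10 q 48.5), with its summit 2742 bp from SEP3. In SEP3wt it spanned 8598335 to 8599163 (829 bp; fold 3.97; −log10 q 28.6), with its summit 2747 bp away. The summits stood 5 bp apart, and the SEP3wt peak lay wholly inside the SEP3tet peak. Among 1726 one-to-one pairs, in which a SEP3tet and a SEP3wt peak overlapped each other and no further peak, 13.6% had summits that close or closer. Both summits fell within AT1G05863, an annotated long non-coding RNA gene named here after its position was seen. The nearest protein-coding gene was AT1G24265, 1526 bp from the SEP3tet and 1521 bp from the SEP3wt summit. Of all summits counted for SEP genes, these lay closest to the 3-kb limit of the window.

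Between this site and the gene, SEP3tet had 1 wide peak where SEP3wt had a pair of narrower ones. The SEP3tet peak ran from 8595343 to 8598152 (2810 bp; fold 5.01; −log10 q 25.4), with its summit 1596 bp from the gene and 781 bp of it inside the gene. Only 14 of the 3601 SEP3tet peaks (0.389%) were that wide or wider. One SEP3wt peak ran from 8595415 to 8596314 (900 bp; fold 2.7; −log10 q 9.8), with its summit 1 bp outside the gene and 709 bp of it inside. The other ran from 8596524 to 8597845 (1322 bp; fold 2.29; −log10 q 8.4), with its summit 1106 bp away. Both lay wholly inside the SEP3tet peak, a form of overlap with 2 or more SEP3wt peaks that 1.42% of SEP3tet peaks had. The SEP3tet summit stood 490 bp from the nearer of the SEP3wt summits, so the 1 wide and 2 narrow calls did not share a summit.

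At the low end of SEP3, SEP3tet alone had a peak. It spanned 8593099 to 8593793 (695 bp; fold 2.38; −log10 q 5.15), with its summit 47 bp outside the gene and 258 bp of it inside. The nearest SEP3wt summit lay 2635 bp away. AT1G24256, a neighbouring gene, was 500 bp from this summit. Within the SEP3tet list, 1.11% of peaks had a lower fold but 37.7% had a lower −log10 q, so the peak ranked far higher by q than by fold.

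The same discrepancy held for the other SEP3 peaks and for no peak at SEP1, SEP2 or SEP4. At SEP3 the percentile by q exceeded that by fold by 36.6, 14.9 and 3.36 points in SEP3tet, in order of coordinate, and by 58.2, 65.5 and 27.8 points in SEP3wt. At the other genes the q percentile was at or below the fold percentile, the difference being -6 points at SEP2 and -0.639 at SEP4 in SEP3tet, and -4.13 at SEP1 and -0.36 at SEP4 in SEP3wt. Under the peak caller's Poisson model, a given fold has a higher q where the background in its denominator is higher.

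That background was therefore solved from each peak's fold and p, under the peak caller's Poisson model with a pseudocount of 1, a step chosen after the data were seen. The solutions shared 1 lowest background per list, which held for 88.8% of SEP3tet and 82.2% of SEP3wt peaks and is called the genome-wide background. The ChIP signal came out as a whole number of fragments (within 0.06) times 1 factor per list, 0.36 in SEP3tet and 0.463 in SEP3wt. The median distance from a whole number was 0.000411 fragments in SEP3tet and 4.9e-05 in SEP3wt. In all, 99.2% of SEP3tet and 98.5% of SEP3wt peaks were resolved. In units of ChIP fragments the genome-wide background was 18 over a summit in SEP3tet and 16.3 in SEP3wt. Fragments carry exact Poisson 95% intervals, which cover counting error only. No interval was computed for the background values or their ratios, so their own counting error is not shown.

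The SEP3 locus held the peak with the most ChIP fragments in each list, and its peaks stood on a raised local background. The distal peak held 268 fragments in SEP3tet (237 to 302) and 235 in SEP3wt (206 to 267), and 0 of the resolved peaks in either list had more. The unresolved peaks allowed at most 139 fragments in SEP3tet and 97 in SEP3wt. Further in, the wide SEP3tet peak held 204 (177 to 234), and the SEP3wt pair held 148 (125 to 174) next to the gene and 181 (156 to 209) beyond it. The SEP3tet peak at the low end held 136 (114 to 161). The median over resolved peaks was 74 in SEP3tet and 62 in SEP3wt, so each SEP3 peak lay above its list's median in signal.

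Relative to the genome-wide background, the local background at SEP3 was raised 3.09, 2.14 and 1.8 times in SEP3tet, in order of coordinate, and 3.28, 4.78 and 3.54 times in SEP3wt. A ratio of at least 1.5 was found in 2.21% of resolved SEP3tet peaks and 1% of resolved SEP3wt peaks. In SEP3wt the 3 SEP3 peaks had the 3 highest backgrounds of the 2192 resolved peaks. In SEP3tet the highest ratio was 3.09, which 1 peak elsewhere shared to the digits given. There, SEP3 peaks included, 12 peaks exceeded the 2.14 and 31 the 1.8 of the distal peak. The peaks closest to this cluster were at the genome-wide level, 11941 bp from SEP3 in SEP3tet and 33760 bp in SEP3wt. Whether transgene copies had a part in this background, or in the fragment counts at SEP3, was not tested.

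Set against the genome-wide background, the distal SEP3 peak had a fold of 13 in SEP3tet and 12.9 in SEP3wt, in place of the deposited 7.7 in SEP3tet and 3.97 in SEP3wt. The wide SEP3tet peak had 9.96, the SEP3wt pair 8.16 and 9.95, and the SEP3tet peak at the low end 6.69. The distal values exceeded the highest deposited fold of their own lists. The deposited folds at this site thus stood further apart between the lines than the folds against the genome-wide background. The local background was 32.4 in SEP3tet and 57.5 in SEP3wt. These 2 values are expressed in units of ChIP fragments, are not counts of background reads, and carry no interval. The sources used here do not say which library supplied the background. Whether transgene copies had a part in the SEP3 fragments, and so in the folds against the genome-wide background, was not tested.

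**Figure D2:**
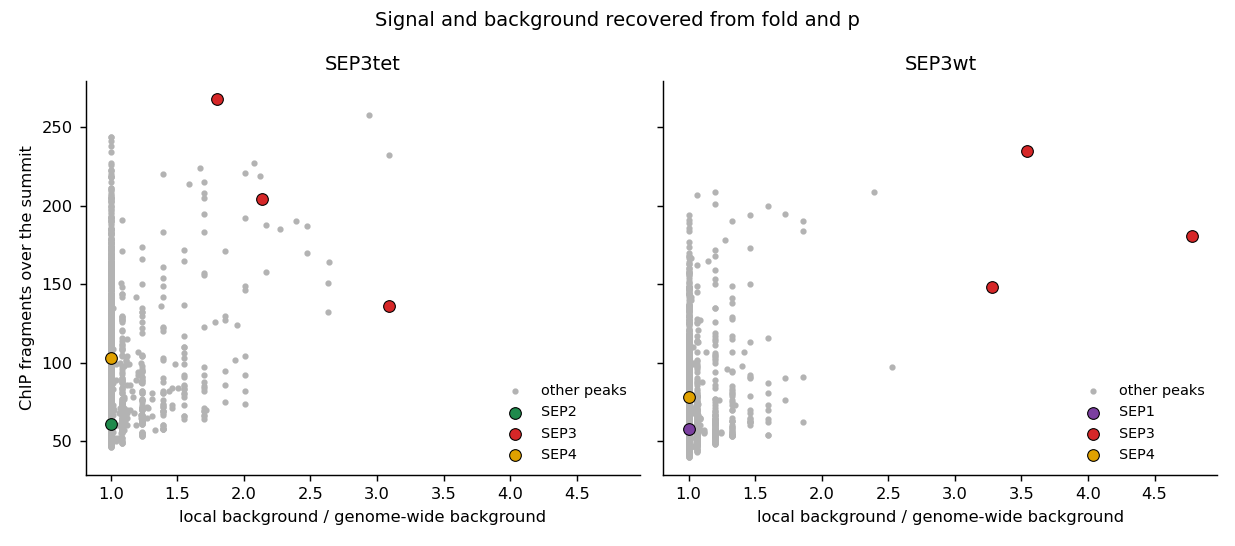
ChIP fragments over each summit (vertical axis) against the local background relative to the genome-wide one (horizontal axis) for resolved peaks of SEP3tet (left) and SEP3wt (right); coloured points are peaks at SEP genes. The SEP3 peaks stand at 136, 204 and 268 fragments in SEP3tet and 148, 181 and 235 in SEP3wt, all right of a ratio of 1.5, while those of the other SEP genes stand at a ratio of 1.

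SEP4, which has a partly redundant role with the other members, had 1 peak in each line on its low-coordinate side. In SEP3tet it spanned 1128308 to 1128926 of chromosome 2 (619 bp; fold 5.1; −log10 q 13.7), its summit 638 bp from the gene, with 103 fragments (84.1 to 125). In SEP3wt it spanned 1128479 to 1128914 (436 bp; fold 4.35; −log10 q 11), its summit 461 bp from the gene, with 78 fragments (61.7 to 97.3). The fold stood at percentile 79.9 in SEP3tet and 74.7 in SEP3wt, and the background was the genome-wide one in both.

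The SEP3wt peak at SEP4 lay wholly inside the SEP3tet peak, yet the summits were 177 bp apart. Of those 1726 one-to-one pairs, whose median distance was 25 bp, 5.85% had summits at least that far apart. Just outside the window, 4966 bp beyond the high end of SEP4 in SEP3tet and 4958 bp in SEP3wt, lay a further shared peak. It was nearest to ACR5, which encodes a protein with ACT domains, at 768 bp in SEP3tet and 776 bp in SEP3wt. Its fold was 5.24 in SEP3tet (106 fragments) and 7.39 in SEP3wt (134 fragments). Within the SEP3tet list it thus stood close to the SEP4 peak with its 103 fragments, and within the SEP3wt list above the SEP4 peak with its 78. No other gene's 3-kb window held the SEP4 summits.

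SEP2 had a peak in SEP3tet only. It spanned 467766 to 467983 of chromosome 3 (218 bp; fold 3.07; −log10 q 3.62), with its summit 730 bp beyond the high end of the gene and 61 fragments (46.7 to 78.4). The fold percentile was 24.4. The 3-kb window of AT3G02320 also held this summit, at 1986 bp. No SEP3wt summit lay closer to SEP2 than 35855 bp. The resolved SEP3wt peaks started at 40 fragments, so a signal below about that number would not have been listed. The lists differ in scale, so the 61 fragments in SEP3tet cannot be set directly against this number.

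SEP1, the close relative of SEP2, had a peak in SEP3wt only. It spanned 5154430 to 5154576 of chromosome 5 (147 bp; fold 3.27; −log10 q 4.95), with its summit 263 bp beyond the high end of the gene and 58 fragments (44 to 75). The fold percentile was 44.1. AT5G15802, at 1728 bp, had this summit in its window as well. The closest SEP3tet summit to SEP1, at 23646 bp, was nearest to COL1, a CONSTANS-like gene. Resolved SEP3tet peaks started at 46 fragments; the lists differ in scale, so the 58 fragments in SEP3wt cannot be set directly against this number.

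Weak peaks were often found in 1 line alone, more so in the longer SEP3tet list. Of the 519 other SEP3tet peaks with a −log10 q within 0.5 of the SEP2 peak, 384 (74%) had no overlapping SEP3wt peak. Of the 444 other SEP3tet peaks as close to the low-end SEP3 peak, 292 (65.8%) had none. Of the 146 other SEP3wt peaks as close to the SEP1 peak, 20 (13.7%) had no overlapping SEP3tet peak. The SEP2 peak thus resembled most SEP3tet peaks of its strength in this respect, and the SEP1 peak a minority of SEP3wt peaks of its strength. Over the SEP genes, 3 of 5 SEP3tet peaks overlapped a SEP3wt peak, beside 53.3% of all SEP3tet peaks, and 4 of 5 SEP3wt peaks overlapped a SEP3tet peak, beside 84.7% of all SEP3wt peaks.

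**Figure D3:**
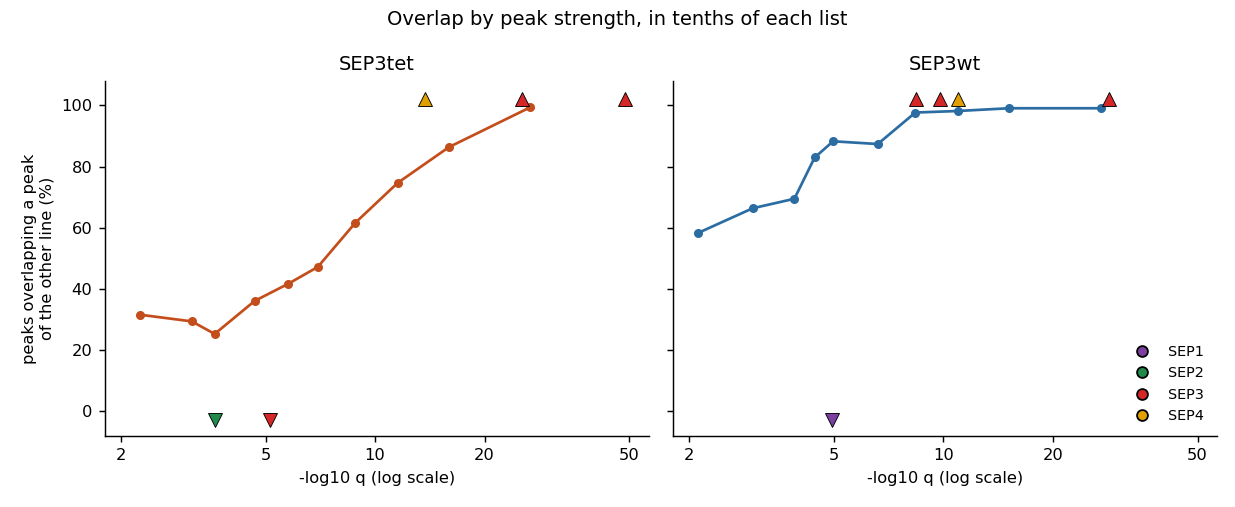
Share of peaks that overlap a peak of the other line (vertical axis, percent) by −log10 q (horizontal log axis; each dot is 1 of 10 equal parts of the list, at its median), for SEP3tet (left) and SEP3wt (right). Triangles mark peaks at SEP genes, at the top where they overlap a peak of the other line and at the bottom where they do not; the peaks at the bottom are SEP2 and the low-end SEP3 peak in SEP3tet, and SEP1 in SEP3wt.

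Among the genes whose proteins join SEP proteins in floral complexes, AP1, FUL, AP3, PI, AG, SHP1 and SHP2 had a summit in both lines, and CAL and STK in neither. That made 7 of 9 genes in each line, beside 21.2% of all protein-coding genes in SEP3tet and 13.7% in SEP3wt. The partner genes held 15 summits in SEP3tet and 12 in SEP3wt. Of these, 7 in SEP3tet and 4 in SEP3wt lay in a gene body, where the SEP genes had 0 summits, although peaks at SEP3 reached into that gene. Over whole lists, 39.8% of SEP3tet and 45.2% of SEP3wt summits lay in the body of some protein-coding gene, so such summits are not particular to partner genes. The highest fold per target had a median of 8.52 in SEP3tet, against 5.1 at SEP genes and 3.89 over all target genes. In SEP3wt it was 6.42, against 3.97 at SEP genes and 3.59 over all target genes. The SEP medians rest on 3 genes per line. The one in SEP3wt is the fold of SEP3, which was taken over a raised local background.

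AP1, for sepal and petal identity, had the same number of summits as SEP3, 3 in each line, with a highest fold of 6.64 in SEP3tet and 6.42 in SEP3wt. Its strongest summits had 135 fragments in SEP3tet and 116 in SEP3wt on the genome-wide background, fewer than those of SEP3. At AP3, a petal and stamen identity gene, the highest fold was 8.52 in SEP3tet and 4.63 in SEP3wt. SHP2, a carpel and fruit gene, reached 9.77 in SEP3tet and 7.56 in SEP3wt. FUL, a fruit and meristem gene listed as AGL8 in the gene table, reached 9.19 in SEP3tet and 6.53 in SEP3wt. SHP1, the close relative of SHP2, reached 9.38 in SEP3tet and 4.03 in SEP3wt. AG, for stamen and carpel identity, had a highest fold of 5.43 in SEP3tet on a background 2.12 times the genome-wide one, and of 7.99 in SEP3wt on the genome-wide background itself. By fragments its strongest peak held 219 in SEP3tet and 145 in SEP3wt. PI also had a raised background, 1.95 times in SEP3tet and 1.4 times in SEP3wt, at a peak whose nearest gene was BCB.

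Of the AGL6 pair, the MADS-box genes closest to the SEP clade, AGL6 had 1 summit in each line (fold 5.82 in SEP3tet and 3.1 in SEP3wt, nearest to SAP18), and AGL13 had none. Among the flowering regulators, SOC1 and SVP were targets in both lines. LFY, an activator of floral identity genes, was a target in SEP3tet only (fold 3.36, −log10 q 5.21), and AGL24 in neither. SOC1, a promoter of flowering, had 3 summits in SEP3tet with a highest fold of 9.91, and 2 in SEP3wt with a highest fold of 7.5. These strongest peaks lay 2018 bp from SOC1 in SEP3tet and 1980 bp in SEP3wt, and were nearest to AT2G45670. SVP, a repressor of flowering, reached 7.36 in SEP3tet, at a peak 2008 bp from the gene and nearest to AT2G22530. In SEP3wt it reached 5.33, at a different peak with its summit inside the gene.

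Genes listed for comparison as broadly expressed, among them the photosynthesis genes RBCS1A and LHCB1.1, were targets in 5 of 8 cases in SEP3tet and 4 of 8 in SEP3wt. Over all protein-coding genes the share was 21.2% in SEP3tet and 13.7% in SEP3wt. A summit within 3 kb was thus frequent in this list as well. RBCS1A, LHCB1.1, ACT8 and UBQ10 had summits in both lines and ACT7 in SEP3tet only, while ACT2, PP2AA3 and TUB2 had none. The strongest LHCB1.1 peaks lay 2256 bp from that gene in SEP3tet and 2495 bp in SEP3wt, and were nearest to CAB1. Those counted for ACT8 were nearest to AT1G49245. The highest folds of the targets in this list had a median of 3.66 in SEP3tet and 5 in SEP3wt. The ACT7 peak had the same fold, 3.07, and the same 61 fragments as the SEP2 peak. At UBQ10 the local background was 2.47 times the genome-wide one in SEP3tet and 1.28 times in SEP3wt, the reverse order of that at SEP3.

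**Figure D4:**
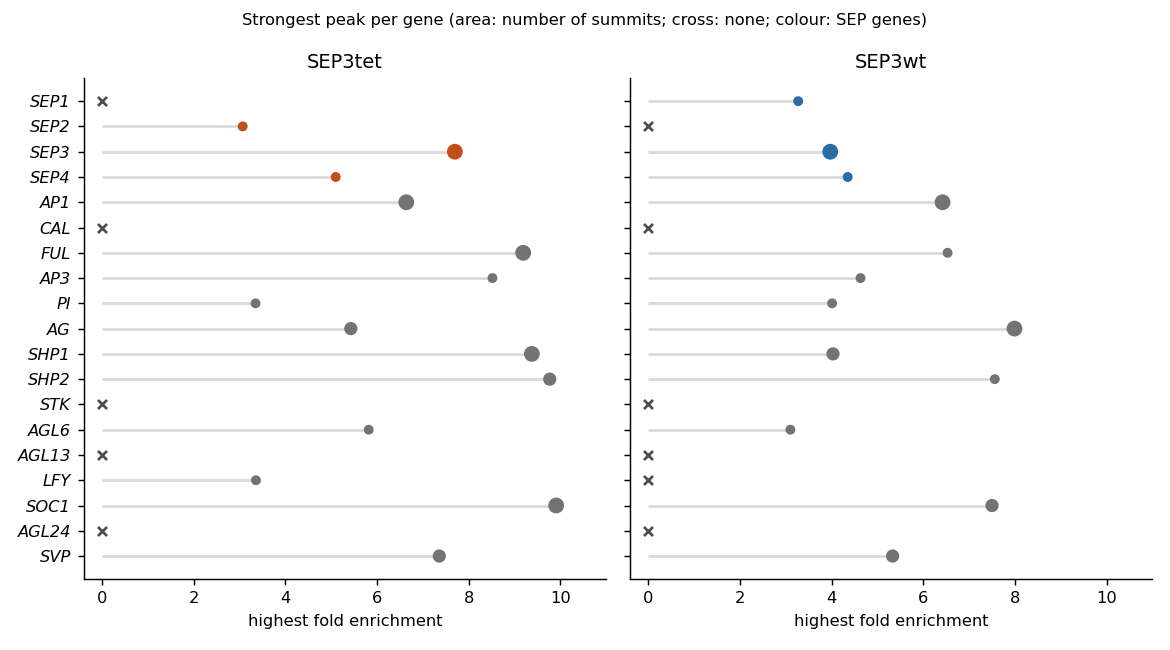
Highest fold enrichment (horizontal axis) of the SEP genes and of the listed partner and regulator genes, in SEP3tet (left) and SEP3wt (right); point area is the number of summits and crosses mark genes with none. SEP3 is at 7.7 in SEP3tet and 3.97 in SEP3wt, and SEP1 and SEP2 each have a cross in 1 line.

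By number of summits and highest-fold percentile in the 2 lists, the genes most like SEP3 were TIFY7, a jasmonate pathway repressor, EXGT-A3, a cell wall xyloglucan-modifying enzyme, and ZFP8, a zinc finger protein. Their summed percentile differences from SEP3 were 6.87, 14.1 and 19.3 points, among 18 candidates. For SEP4 they were TAF4B and STZ, which are neighbours that share 1 peak per line (1.96 points each), and CIB22 (2.92), among 943 candidates. The SEP3 percentiles used, 96.2 in SEP3tet and 67.9 in SEP3wt, rest on folds over the raised local background; against the genome-wide background SEP3 was at percentile 100 in both lists, so its match depends on that choice. With 2 lists this likeness rests on 2 values per gene and is a description only.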

How the data were processed

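The submitters' processing notes name MACS2 2.2.7.1, Bowtie2 2.2.5, Trimmomatic 0.36, deepTools and the build TAIR10. How replicates were combined and which library was the control are not stated in the sources used here. The deposited lists give, per peak, the authors' fold enrichment (a ratio), −log10 p, −log10 q and a display score; the deposited score equals the whole part of 10 times −log10 q and was not used, and the deposited summit offset placed the summits. Sequencing totals are not given in those sources.

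Gene edges came from RefSeq TAIR10.1. Peaks were shared where they overlapped by at least 1 bp. Python 3.11.15, numpy 2.4.6, pandas 2.3.3 and scipy 1.17.1 were used, and assignment, overlap and recovery of fragments were tested on simulated data. Where several solutions for a peak passed, the one at the genome-wide background was taken. No test was run: each line has 1 list. Promoter motifs and protein sequences, also planned, were not used here. The members and lists were chosen with earlier results of these data known. Named are the listed genes, neighbours whose window holds a SEP summit, and the 3 genes most like each SEP gene with peaks in both lines; further genes serve to place a peak.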

Additional observations from a re-analysis of the deposited data

How the results depend on the processing

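The number of SEP genes with a summit stayed within 1.5 times of 3 in SEP3tet and of 3 in SEP3wt under all 8 alternatives. With 4 genes, a count of 2 or 4 also lies in that range, so it tells little about stability. The number was 2 in each line at a −log10 q of at least 5 or at least 10, where SEP1 and SEP2 had no peak. SEP2 alone was lost with equal numbers of strongest peaks. With SEP3 left out, an alternative chosen after seeing the data, the SEP genes with a summit in both lines numbered 1 instead of 2, and the summits 2 in SEP3tet and 2 in SEP3wt instead of 5 each. With a 1-kb window there were 3 summits in SEP3tet and 3 in SEP3wt. At a −log10 q of at least 10 there were 3 in SEP3tet and 2 in SEP3wt, and with equal numbers of peaks 3 in SEP3tet. Requiring summits within 100 bp left 20% of SEP3wt peaks at SEP genes shared, in place of 80%, and 20% of SEP3tet peaks in place of 60% (the distal SEP3 pair in both lists). Requiring overlap of at least 0.5 of both peaks, also chosen after seeing the data, left 40% shared in each line. With the genome-wide in place of the local background, the folds of the 6 SEP3 peaks rose. Both folds of a peak use the same ChIP fragments, so the fragment intervals do not apply to this rise. The local backgrounds of these 6 peaks were above the genome-wide one, so a rise was fixed in advance. The 4 other peaks have the genome-wide background already, so their folds could not change. No paired analysis was possible because the lists hold no value per replicate; for the same reason no replicate was left out.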
